A study of Saccharomyces cerevisiae with 39 samples.

Results

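The 37 genes described here encode the machinery of RNA polymerase I (Pol I) and RNA polymerase III (Pol III) of budding yeast. They were chosen by their known function, at a time when earlier results of these data were known. They make up 37 of the 6420 features counted. By role they are 7 subunits of Pol I only, 10 subunits of Pol III only, 2 subunits that both enzymes share (RPC40 and RPC19), 2 of TFIIIB, 6 of TFIIIC, TFIIIA (PZF1), the Pol III repressor MAF1, the Pol I initiation factor RRN3, 3 genes of the core factor and 4 of the upstream activating factor (UAF). Newly made RNA was measured by 4tU-seq. The cells were given 4-thiouracil (5 mM for 6 min), which is built into RNA as it is made, and the labelled RNA was purified and sequenced.

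There were 39 libraries, with 3 in each of 13 groups. In 33 of them the cells carried Abf1 fused to the FRB domain, yEGFP and 3V5 (the Abf1-FRB strain), and these cells received 7.5 µM rapamycin for 5, 10, 15 or 20 min, for 30, 40, 50 or 60 min, or for 75 or 90 min, or DMSO for 90 min (the 0 min group). In the other 6 the untagged parental strain (WT) received rapamycin for 90 min (WT 90 min) or DMSO for 90 min (WT 0 min). Both strains are BY4742 (MATalpha), and both carry tor1-1, lack FPR1 and have RPL13A fused to FKBP12. Rapamycin joins FRB to the ribosomal anchor, so that Abf1 leaves the nucleus with newly made ribosomal proteins. Depletion acts on the protein, so the RNA counts hold no direct check of it. The tor1-1 allele and the loss of FPR1 make the cells resistant to rapamycin, which otherwise acts on the Pol I and Pol III machinery through TOR.

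Pol I makes the large ribosomal RNA precursor, and Pol III makes tRNAs, the small ribosomal RNA of the large ribosomal subunit and a few other short RNAs. Both enzymes are built on a shared assembly platform of Rpc40 and Rpc19, and both take further small subunits that Pol II also uses. All of these proteins are themselves made from mRNAs transcribed by Pol II, and it is the synthesis of those mRNAs that was measured. Abf1 is an essential DNA binding protein that sits in many yeast promoters and keeps nucleosomes away from them. The motifs PAC and RRPE lie before many genes of ribosome production and of the Pol I and Pol III machinery.

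The libraries held 3500982 to 11266408 counts (median 5467295), and the 37 genes together took 0.280% to 0.460% of a library. A count of 3, the limit that a count of 0 allows, stood for 0.266 to 0.857 CPM (counts scaled to one common library total, elsewhere with TMM factors), and this floor covers counting error only. No member was at 0 in any library, and the lowest count was 20 (RPC25, replicate 3 of Abf1 90 min). As the genotype requires, FPR1, LEU2, LYS2 and URA3 had 0 counts in all 39 libraries, while HIS3, of which the strain's allele removes only a part, had 77 to 220 counts. The alpha-cell gene MF(ALPHA)1 had 319 to 2564 CPM, while the a-cell genes MFA1 and MFA2 had at most 8 and 9 counts. The a-cell gene STE2 was low but present in every library, with 17 to 75 counts (3.13 to 12.4 CPM). Replicate 2 of the depleted groups stood low for these genes from 20 min on. It was the lowest of the 3 libraries for 22 of the 37 members at 20 min, 25 at 30, 40, 50 and 60 min, 28 at 75 min and 24 at 90 min, against 8 of 37 at 0 min. Over all features tested the share was 33.7% to 38.6% from 20 to 90 min and 33.6% at 0 min. Its part in the results was not tested beyond leaving those libraries out. In bulk libraries less RNA from every cell cannot be told apart from fewer cells that make it, and with no added reference RNA every value is relative to the labelled RNA of its library.

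Promoters were read for the Abf1 consensus, a motif of 13 bases with a variable middle, and for PAC (GATGAG) and RRPE (AAAATTTT), on both strands. Matches of different motifs did not overlap each other in any member. From 250 bases before to 50 bases after the start codon, the Abf1 consensus occurred in 8 of 37 members (21.6%) and in 12% of 6001 promoters of the genome. With 500 bases before the start codon it occurred in 9 members (24.3%) and in 18.5% of 6000 promoters. PAC was present in 23 members (62.2%) against 20.4% of all promoters in the short window, and RRPE in 15 members (40.5%) against 9.03%. In the long window the shares were 67.6% against 31.1% for PAC and 45.9% against 12.8% for RRPE. A match is a string of letters in a window and does not show that a factor binds there.

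The 4 stretches printed first belong to the genes that the results turn on, since newly made RNA of RPC40, RPC19, RPO31 and RPC25 was lower at both 20 and 30 min of depletion. They are read 5′ to 3′ on the strand of the gene from assembly R64 (distributed as sacCer3), and capitals mark the Abf1 consensus and PAC, while RRPE is left in lower case. In RPC40 the Abf1 match starts 131 bases before the start codon, in RPC19 156 bases, in RPC25 159 bases, and in RPO31 there are 2 matches at 378 and 360 bases.
RPC40, chrXVI:746887-747006, minus strand: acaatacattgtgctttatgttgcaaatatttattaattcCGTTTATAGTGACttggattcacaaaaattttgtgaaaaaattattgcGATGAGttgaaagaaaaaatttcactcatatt
RPC19, chrXIV:412575-412694, plus strand: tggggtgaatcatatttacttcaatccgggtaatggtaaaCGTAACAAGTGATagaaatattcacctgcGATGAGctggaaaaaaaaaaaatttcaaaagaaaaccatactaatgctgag
RPO31, chrXV:544444-544563, minus strand: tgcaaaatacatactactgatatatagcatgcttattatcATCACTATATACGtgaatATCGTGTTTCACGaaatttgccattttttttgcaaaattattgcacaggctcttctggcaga
RPC25, chrXI:176561-176680, minus strand: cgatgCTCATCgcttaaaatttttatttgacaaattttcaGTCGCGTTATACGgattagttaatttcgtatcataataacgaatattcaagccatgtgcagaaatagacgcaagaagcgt

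The other 5 members with an Abf1 match are shown by 29 bases around it, because the same motif stood before genes that were not lower at both of these times. The match starts 138 bases before the start codon in RPA12, 157 in RET1, 213 in RPA135, 106 in PZF1 and 152 in RPC82.
RPA12, chrX:555049-555077, plus strand: aattatatATCGTTACGAACGaaagatga
RET1, chrXV:733594-733622, minus strand: ttttccagATCACGTCGGACGaaattgta
RPA135, chrXVI:581389-581417, minus strand: atgctataATCGCTAATGACGgaaattat
PZF1, chrXVI:911108-911136, minus strand: aattaaatATCATACTATACGaataatca
RPC82, chrXVI:919173-919201, minus strand: tattggttCGTTGGGAATGATcagaaatt

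The 9 members with a match within 500 bases thus hold all 4 genes that were lower at both 20 and 30 min (44.4% of the 9), and the 28 members without one hold none of them. Over all genes tested with a promoter window, 39.2% of 1074 genes with a match and 1.24% of 4529 genes without one were lower at both times. Within 250 bases, where the matches of RPO31 are not counted, 3 of 8 members with a match (37.5%) and 1 of 29 without one (3.45%) were lower at both times, against 49.9% of 704 and 2.57% of 4899 genes. Each of the 4 genes also had a PAC match within 500 bases, and RPC40 and RPC25 had an RRPE match. The other members with an Abf1 match (RPA12, RET1, RPA135, PZF1 and RPC82) had PAC there too, and all but RPA12 had RRPE. In all, 25 of 37 members had PAC within 500 bases.

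Before depletion the genes differed widely in newly made RNA. At Abf1 0 min the level per kilobase of coding sequence ran from 12.7 ± 0.99 CPM per kb for RRN5 (a UAF gene) to 161 ± 25.7 for RPA14 (SD, n = 3 each). RPA14, a stalk subunit of Pol I, overlaps the open reading frame YDR157W, so its level is uncertain, because it is not stated whether the counting used strand. Next came the largest Pol I subunit RPA190 (YOR341W, chromosome XV, 960987 to 965981) at 129 ± 10.9 and the TFIIIB subunit BDP1 at 120 ± 4.6 CPM per kb. The largest Pol III subunit RPO31 stood at 102 ± 12.9, RPC40 at 96.5 ± 8.16 and RPC19 at 93.0 ± 8.62, so these neighbours in the order did not differ beyond their SDs. Low in the order were RPC25 at 32.5 ± 5.11, RRN3 at 30.7 ± 5.66 and RRN11 at 21.1 ± 3.01 CPM per kb.

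Each time point was compared with Abf1 0 min in one edgeR fit over 39 libraries. A gene was called where its Benjamini-Hochberg adjusted p over 5722 tested features was under 0.01 and its fold change over 1.5, and all 37 members were tested. The 10 comparisons share the 0 min libraries, so they are not independent of each other. At 5 and 10 min edgeR called 0 members in either direction, and at an unadjusted p under 0.05 there were 2 lower and 0 higher at 5 min, and 3 lower and 1 higher at 10 min. DESeq2 called 0 members at 5 min and 1 lower at 10 min. Over all features 0.507% were lower and 0% higher at 5 min, where 196 were higher at an unadjusted p under 0.05 and DESeq2 called 3, and 4.02% were lower and 0.245% higher at 10 min. At 15 min 1 member was lower (2.7%), against 6.85% of all features, and 0 were higher, against 0.315%, with 2 higher at an unadjusted p under 0.05 and 0 by DESeq2.

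At 20 min 4 members were lower, or 10.8% of the 37 against 8.65% of all features, and 1 was higher (2.7% against 0.629%). At 30 min 5 were lower (13.5% against 9.8%), and the count was again 5 at 40 min (10.3% of all features) and 50 min (10.6%). It was 7 at 60 min (18.9% against 11.1%), 5 at 75 min (11.3% of all features) and 4 at 90 min (10.8% against 11.3%). Members called higher numbered 0 at 30, 40, 50 and 60 min, where 1.26%, 1.49%, 2.66% and 2.74% of all features were higher. At these times 5, 5, 7 and 9 members were above 0 at an unadjusted p under 0.05, and DESeq2 called 0. Of the 5722 features, 917, 947, 1154 and 1197 were higher at that unadjusted threshold. At 75 and 90 min 2 members were higher (5.41%), against 4.74% and 6.26% of all features. The 4 members lower at both 20 and 30 min compare with 8.46% of all features, and 0 members were higher at both, against 0.489%. From 20 to 90 min the share of members called lower thus ran from 10.8% to 18.9%, against 8.65% to 11.3% of all features. The 18.9% was reached at 60 min only, and at 90 min the members were below the share of all features. The median change of the 37 was −0.01 at 20 min and −0.04 at 90 min, against 0.06 and 0.04 over all features (log2).

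Single libraries moved these counts. With 4 members lower at 20 min and at both 20 and 30 min, either count was 2 without replicate 2 of Abf1 0 min and 1 without replicate 2 or without replicate 3 of Abf1 20 min. The count at 30 min was 3 without replicate 2 or replicate 3 of that time, and the counts at 40, 60 and 75 min were 3, 4 and 3 without replicate 2 of the same time. With replicate numbers as a block, edgeR called 1 member lower at 10 min (RRN11, −1.29, adjusted p = 0.00101) and 3 at 15 min (RPO31, RPC40 and RPC25).

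**Figure D1:**
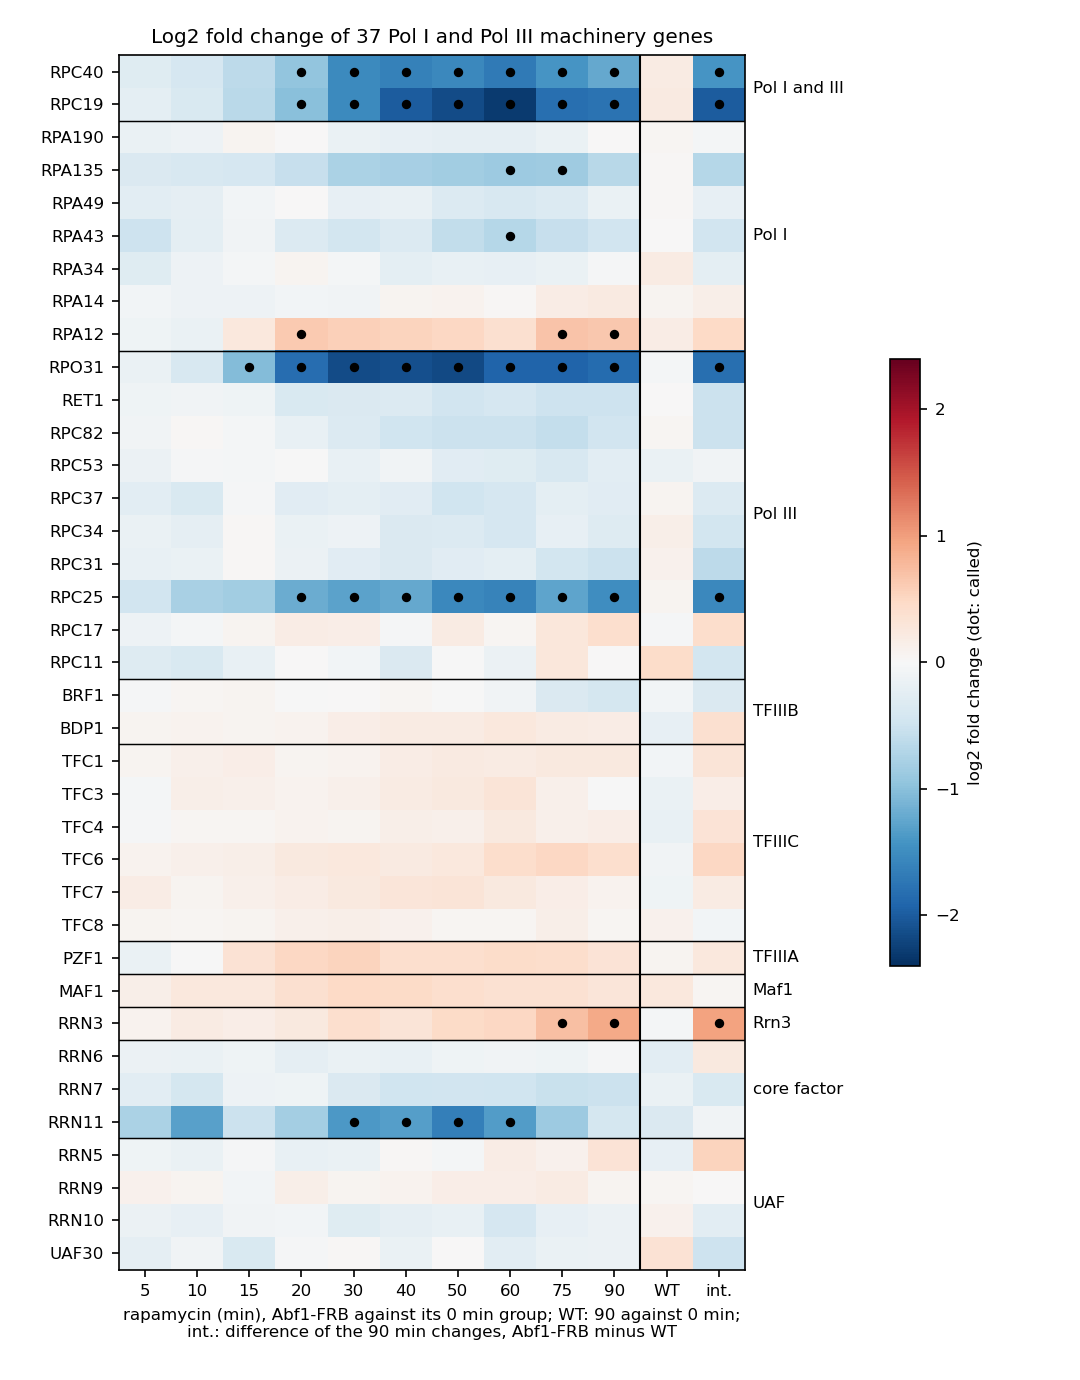
Log2 fold change of each of the 37 genes (rows, grouped by complex) at 5 to 90 min of rapamycin against 0 min in the Abf1-FRB strain, at 90 min against 0 min in WT, and as the difference of the 90 min changes (Abf1-FRB minus WT). Black dots mark called changes: RPC40, RPC19, RPO31 and RPC25 are lower from 20 to 90 min, RPO31 also at 15 min, and no gene is called in WT.

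The subunits shared by Pol I and Pol III were both lower from 20 to 90 min, against 8.65% to 11.3% of all features. RPC40 (YPR110C, chromosome XVI, 745828 to 746835, minus strand) had 51.9, 50.4 and 48.5 CPM at Abf1 20 min, against 103, 101 and 87.8 CPM at Abf1 0 min. The groups did not overlap, and the level was 1.93-fold lower (log2 fold change −0.95 ± 0.23 SE, adjusted p = 0.00233). At 60 min RPC40 had 38.8, 22.8 and 28.7 CPM, 3.24-fold below 0 min (−1.69 ± 0.23, adjusted p = 6.88e-07), and at 90 min it had 55.8, 31.3 and 37.4 CPM, 2.35-fold below (−1.23 ± 0.23, adjusted p = 8.76e-05). At 15 min the change was −0.63 ± 0.23 and not called (adjusted p = 0.075), but it was called with the replicate block (−0.64, adjusted p = 0.00688). The call at 20 min was lost without replicate 2 of Abf1 20 min (adjusted p = 0.0114) or replicate 3 (0.0133). The later calls held with each library left out, but that of 50 min was lost with only the groups compared in the fit (−1.58, adjusted p = 0.012). In WT, RPC40 had 119, 123 and 114 CPM at 90 min, against 108, 107 and 98.0 CPM at 0 min, with no overlap (0.19 ± 0.22, adjusted p = 0.885).

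RPC19 (YNL113W, chromosome XIV, 412771 to 413199, plus strand), the partner of Rpc40 in the assembly platform, had 20.5, 19.1 and 20.5 CPM at Abf1 20 min, against 43.9, 39.3 and 36.6 CPM at Abf1 0 min. It was 1.99-fold lower with no overlap (−0.99 ± 0.27, adjusted p = 0.00839), but this call was lost when any one of the 6 libraries compared was left out, with adjusted p up to 0.0407, and also with total counts as the only scaling (0.0131). From 30 min on its calls held with each library left out. At 60 min RPC19 had 12, 4.98 and 7.47 CPM, 4.89-fold below 0 min (−2.29 ± 0.29, adjusted p = 1.47e-07), which was the strongest decrease of any member at any time. At 90 min it had 13.8, 7.99 and 13.5 CPM (−1.77 ± 0.29, adjusted p = 1.1e-05). In WT the groups overlapped, with 46.3, 57.7 and 57.4 CPM at 90 min against 46.1, 39.7 and 52.8 CPM at 0 min (0.22 ± 0.26, adjusted p = 0.885).

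Of the 10 subunits particular to Pol III by function, the largest catalytic subunit and a stalk subunit were lower. Over all features 8.65% were lower at 20 min and 11.3% at 90 min. RPO31 (YOR116C, chromosome XV, 539763 to 544145, minus strand), the largest subunit, was called from 15 min on. It had 396, 309 and 316 CPM at 10 min, against 511, 404 and 425 CPM at 0 min, and all 3 were below the 0 min libraries (−0.39 ± 0.11, adjusted p = 0.0142, not called). At 15 min it had 227, 192 and 232 CPM, 2.06-fold below 0 min (−1.04 ± 0.11, adjusted p = 4.34e-09).

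At 20 min RPO31 had 133, 114 and 132 CPM (3.53-fold lower, −1.82 ± 0.11, adjusted p = 1.88e-14). It then stayed at 95.2 to 135 CPM in all 18 libraries from 30 to 90 min, and at 90 min the 134, 114 and 123 CPM were 3.61-fold below 0 min (−1.85 ± 0.11, adjusted p = 1.04e-14). The 90 min group differed from the 20 min group by −0.03 ± 0.11 (adjusted p = 0.892). Every call of RPO31 held with each library left out. In WT it had 503, 504 and 480 CPM at 90 min, against 521, 501 and 505 CPM at 0 min, and the groups overlapped (−0.04 ± 0.11, adjusted p = 0.963).

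RPC25 (YKL144C, chromosome XI, 175843 to 176481, minus strand), a stalk subunit of Pol III, had 11.1, 9.54 and 6.5 CPM at Abf1 20 min, against 21.7, 23.5 and 17.2 CPM at Abf1 0 min. The groups did not overlap, and the level was 2.29-fold lower (−1.19 ± 0.29, adjusted p = 0.0033). At 90 min it had 11.1, 5.26 and 5.76 CPM, 2.82-fold below 0 min (−1.50 ± 0.31, adjusted p = 0.000261). With the replicate block it was called at 15 min as well (−0.84, adjusted p = 0.00829), where the fit without it gave −0.83 ± 0.29 (adjusted p = 0.069).

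Several of the RPC25 calls depended on single libraries. The call at 20 min was lost without replicate 2 of Abf1 0 min (−1.14, adjusted p = 0.0165) and without replicate 2 (−1.23, 0.0124) or replicate 3 (−1.01, 0.0347) of Abf1 20 min. At 30 min it was lost without replicate 2 or 3 of that time, at 40 min without replicate 2 of Abf1 0 min or replicate 2 or 3 of Abf1 40 min, and at 75 min without replicate 2 of that time. With replicate 2 of every group left out, RPC25 was called at 50 and 60 min only (adjusted p = 0.0113 at 90 min). With only the groups compared in the fit, the calls at 50 min (−1.58, adjusted p = 0.0101) and 75 min (−1.30, 0.029) were lost. In WT the libraries overlapped, at 25.3, 30.2 and 26.5 CPM at 90 min against 28.3, 24.4 and 26.1 CPM at 0 min (0.06 ± 0.28, adjusted p = 0.984).

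**Figure D2:**
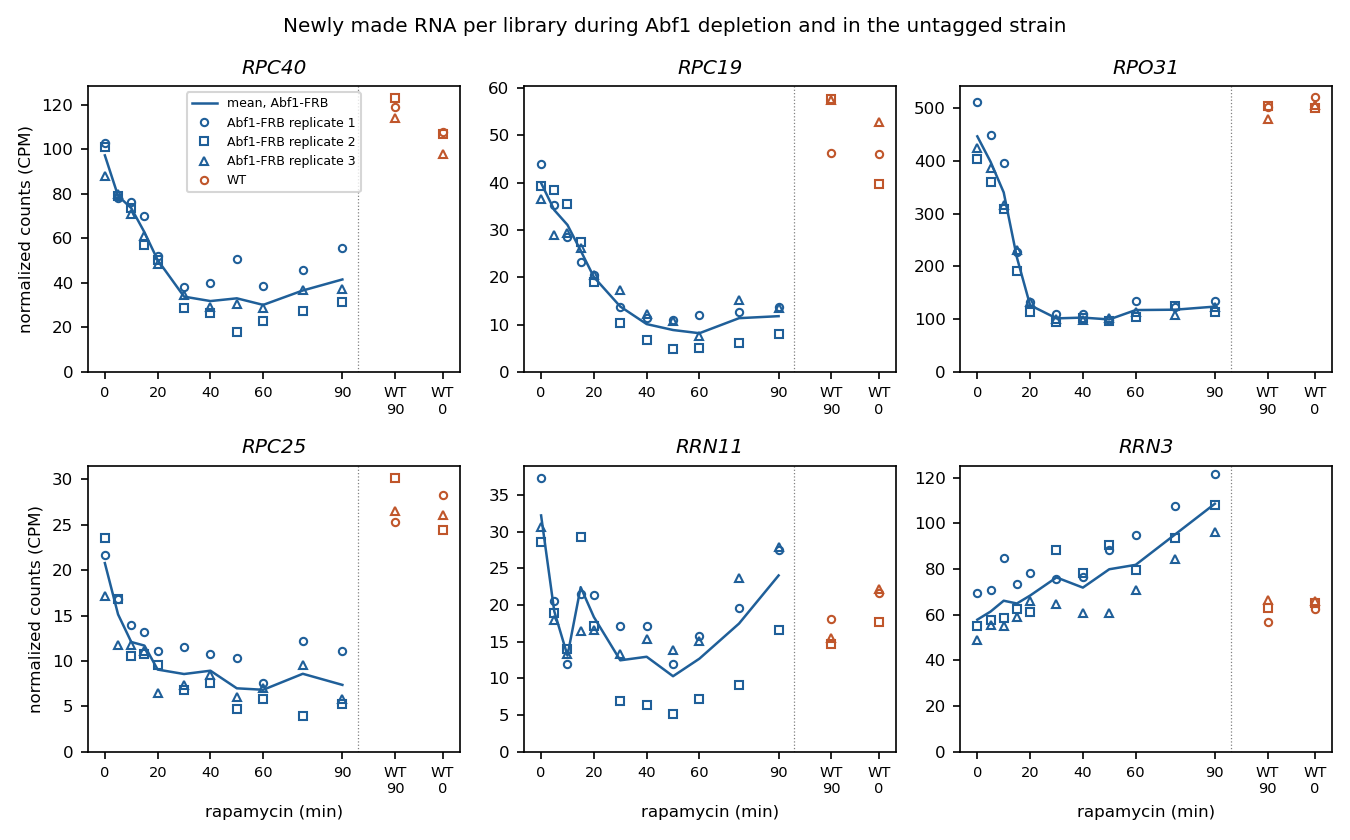
Newly made RNA (CPM, linear axes from 0) of 6 genes in each library of the Abf1-FRB strain over 0 to 90 min of rapamycin (blue symbols by replicate number, line through the means) and in WT at 90 and 0 min (orange). RPO31 reaches its lower level by 20 to 30 min, RPC40 and RPC19 by about 40 min, RRN11 is low at 10 min and from 30 to 60 min, and RRN3 is highest at 90 min.

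An exponential decrease to a final level was fitted to the 33 Abf1-FRB libraries for these 4 genes. RPC25 decreased at 0.103 ± 0.0250 per min (SE), a half-time of 6.71 min, to 37.1% of its start. RPO31 decreased at 0.0769 ± 0.00987 per min, a half-time of 9.02 min, to 20.2%. RPC40 followed at 0.0674 ± 0.0123 per min (10.3 min, to 32.6%) and RPC19 at 0.0532 ± 0.00825 per min (13 min, to 20.5%). Neighbours in this order differed by less than the sum of their standard errors. The fits gave a pseudo-R2 of 0.735 for RPC25, 0.915 for RPO31, 0.850 for RPC40 and 0.902 for RPC19, and they are on counts scaled to the median library total. The RPO31 libraries lay above the fitted curve at 10 min and below it at 20 min, so its half-time only approximates its course.

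The other 8 Pol III subunits showed smaller values. At 20 min edgeR called 0 of the 8, with 0 at an unadjusted p under 0.05 and 0 by DESeq2. Of all features, 8.65% were lower and 0.629% higher at 20 min, and 11.3% and 6.26% at 90 min. The log2 fold changes of the 8 at 20 min ran from −0.36 (RET1, the second-largest subunit) to 0.18 (RPC17, the second stalk subunit). At 90 min edgeR and DESeq2 again called 0, with 3 lower at an unadjusted p under 0.05, and values ran from −0.52 for RPC31 to 0.41 for RPC17, with a median of −0.28. RPC17, which forms the stalk with Rpc25, was on the other side of 0 from RPC25. RPC82, of the initiation subcomplex with Rpc34 and Rpc31, had 78.6, 50.0 and 58.8 CPM at 75 min, against 98.7, 92.8 and 86.6 CPM at 0 min. Its change at 75 min (−0.57 ± 0.17, adjusted p = 0.00824) stayed under 1.5-fold, but it was called by DESeq2 (−0.59, adjusted p = 0.00387) and with the replicate block (−0.59, adjusted p = 5.75e-05). RET1, RPC82 and RPC31 are named here after their values were seen.

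The factors that bring Pol III to its genes, MAF1 and the UAF genes, which serve Pol I, were not called. Over the 14 genes of TFIIIA, TFIIIB, TFIIIC, MAF1 and UAF, edgeR and DESeq2 called 0 in either direction at every time. Over all features 8.65% were lower and 0.629% higher at 20 min, and 11.3% and 6.26% at 90 min. With 14 genes, 0 calls do not set this group apart from those shares. RRN3 and the core factor, where calls were made, are not among the 14 and are given below. At an unadjusted p under 0.05 the count was 0 lower and 2 higher at 20 min, and 1 lower and 4 higher at 90 min. The number of higher genes was largest after 60 min of rapamycin, with 7 of the 14 higher and 1 lower. The median of the 14 was then 0.22 (log2). Of the 5722 features, 1197 were higher and 1108 lower by the same threshold after 60 min. The 50 and 75 min groups each had 5 of the 14 higher and 0 lower. The 6 TFIIIC genes, whose products bind the internal promoter boxes, lay between 0.06 and 0.23 at 20 min (median 0.10) and between −0.00 and 0.41 at 90 min (log2). BRF1 and BDP1, which with TBP form TFIIIB, lay at −0.00 and 0.08 at 20 min and at −0.41 and 0.18 at 90 min.

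PZF1 and MAF1, described after their values were seen, passed the p threshold but not the fold threshold. PZF1 (TFIIIA, the factor for the 5S ribosomal RNA genes) had 73.6, 62.7 and 74.9 CPM at 20 min, against 50.5, 47.2 and 50.9 CPM at 0 min. These groups did not overlap (0.51 ± 0.09, adjusted p = 8.29e-05), and at 90 min the change was 0.33 ± 0.09 (adjusted p = 0.0062). MAF1, whose product represses Pol III, had 114, 133 and 130 CPM at 20 min, against 85.7, 93.4 and 108 CPM at 0 min (0.39 ± 0.11, adjusted p = 0.00741). In WT, MAF1 had 115, 121 and 119 CPM at 90 min, against 99.6, 104 and 94.1 CPM at 0 min (0.25 ± 0.11, adjusted p = 0.534), and the difference between the strains was 0.05 ± 0.15 (adjusted p = 0.888).

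**Figure D3:**
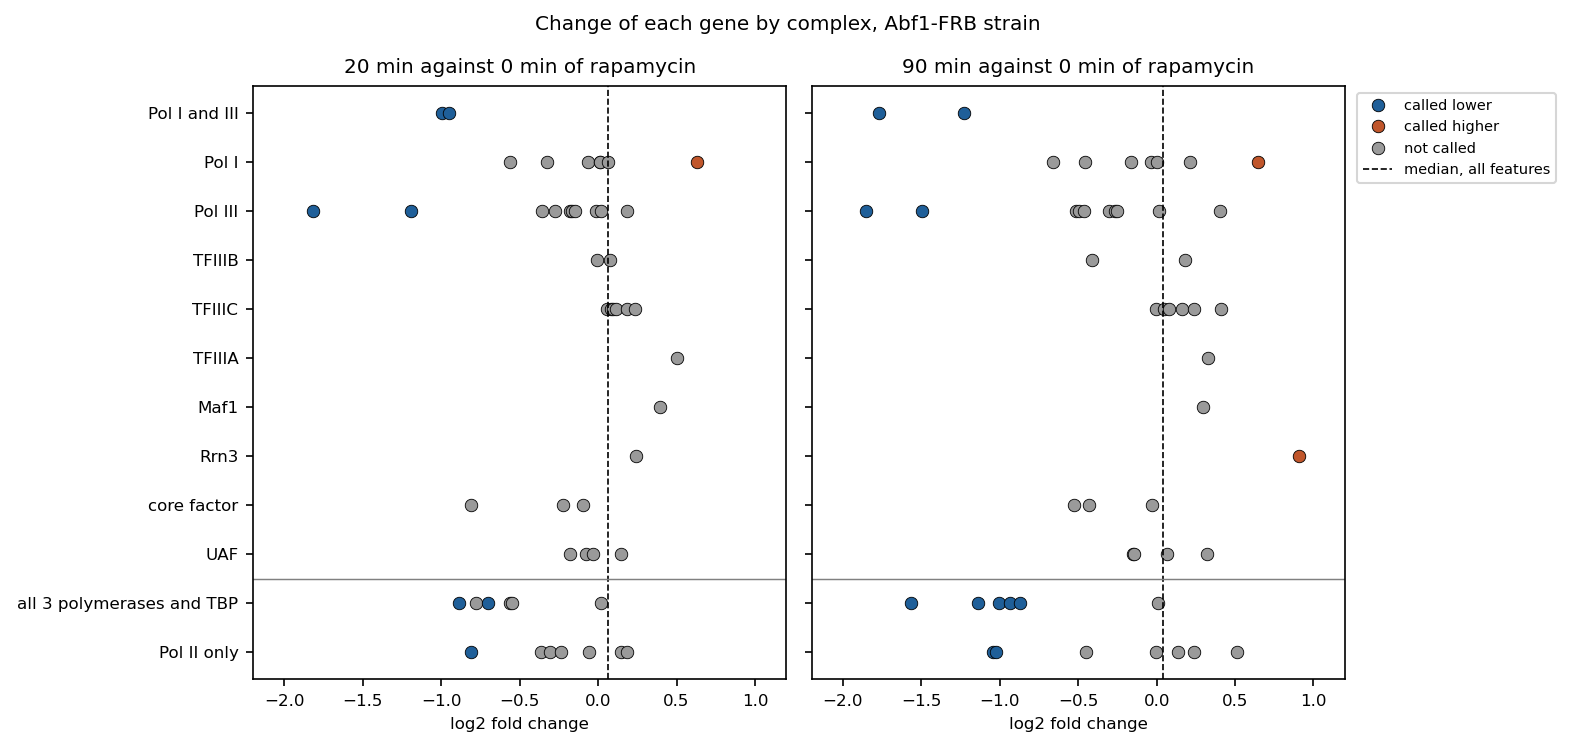
Log2 fold change of each gene at 20 min (left) and 90 min (right) of rapamycin against 0 min in the Abf1-FRB strain, 1 point per gene, by complex, with subunits of all 3 polymerases plus TBP and Pol II subunits below the line. Blue points are called lower, orange higher, grey not called, and the dashed line is the median of all features (0.06 and 0.04). Lower members lie among the Pol I and III and Pol III subunits.

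Among the 7 subunits found only in Pol I, changes went both ways. At 20 min 1 of the 7 was called higher, against 0.629% of all features. At 60 min 2 were lower, against 11.1%, and at 90 min 1 was higher, against 6.26%. At 75 min 1 was lower and 1 higher, against 11.3% and 4.74%. RPA12 (YJR063W, chromosome X, 555195 to 555572, plus strand), needed for RNA cleavage and termination by Pol I, had 43.6, 54.4 and 41.8 CPM at Abf1 20 min, against 34.7, 23.9 and 31.7 CPM at Abf1 0 min, and the groups did not overlap. It was called higher at 20 min (0.63 ± 0.17, adjusted p = 0.0074), at 75 min (0.68 ± 0.17, adjusted p = 0.00195) and at 90 min, when it had 54.6, 44.8 and 42.0 CPM (0.65 ± 0.17, adjusted p = 0.00342). In WT it had 45.0, 45.1 and 37 CPM at 90 min, against 36.0, 40.5 and 36.3 CPM at 0 min (0.17 ± 0.17), and the difference between the strains was not called (0.48 ± 0.24, adjusted p = 0.179).

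The calls of RPA12 depended on single libraries. At 20 min the call was lost without any one of the 0 min libraries (0.70, 0.45 and 0.63 without replicate 1, 2 and 3, with adjusted p of 0.0106, 0.138 and 0.0271), without replicate 1 (0.68, 0.0115) or replicate 2 (0.50, 0.0808) of Abf1 20 min, and with replicate 2 of every group left out (0.35, 0.122). At 75 min it was lost without replicate 1 or 3 of that time or replicate 2 of Abf1 0 min, and at 90 min without replicate 1 or 2 of that time or replicate 2 or 3 of Abf1 0 min. It was also lost at 20 min with no filter on low counts, with total counts as the only scaling, and with only the groups compared in the fit, which also ended the calls at 75 min (adjusted p = 0.0456) and 90 min (0.039).

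RPA135 and RPA43 were called lower late, and are given although the rule for named genes did not choose them. RPA135, the second-largest Pol I subunit, had 207, 105 and 225 CPM at 60 min, against 288, 368 and 326 CPM at 0 min (−0.87 ± 0.24, adjusted p = 0.00686). The groups did not overlap. At 75 min it had 215, 135 and 194 CPM (−0.85 ± 0.24, adjusted p = 0.00721), and with the replicate block it was called at 30 min (−0.79, adjusted p = 0.00532), 40 min (−0.83, 0.00295) and 90 min (−0.71, 0.00792) too.

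The call of RPA135 at 60 min was lost without replicate 2 of Abf1 60 min (−0.62, adjusted p = 0.0721) and without replicate 2 (−0.81, 0.03) or 3 (−0.91, 0.0147) of Abf1 0 min, and with replicate 2 of every group left out its change was under 1.5-fold (−0.53). At 75 min the call was lost without replicate 2 or 3 of either group. RPA43, the stalk subunit that contacts Rrn3, was called at 60 min with 37.5, 22.0 and 38.1 CPM, against 49.3, 63.7 and 43.6 CPM at 0 min (−0.68 ± 0.19, adjusted p = 0.00533). Without replicate 2 of Abf1 60 min its change was −0.49 (adjusted p = 0.0636), without replicate 2 of Abf1 0 min −0.55 (0.0491), and without replicate 2 of every group −0.32. With only the groups compared in the fit, the 60 min calls of RPA135 (−0.89, adjusted p = 0.0509) and RPA43 (−0.70, 0.0801) were lost. RPA190, which shares its upstream region of 805 bp with RPA43, was not called at 60 min. At 90 min, when RPA43 was not called either, RPA190 had 728, 416 and 795 CPM, against 623, 707 and 605 CPM at 0 min, so the groups overlapped.

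The Pol I initiation factors RRN11 and RRN3 were called in opposite directions, at different times. RRN11 (YML043C, chromosome XIII, 190244 to 191767, minus strand), a core factor subunit named after its values were seen, had 20.6, 18.9 and 17.9 CPM at 5 min and 12, 14.0 and 13.3 CPM at 10 min, against 37.4, 28.6 and 30.7 CPM at 0 min. At 15 min it had 21.5, 29.3 and 16.5 CPM and overlapped the 0 min group. It was called lower at 30 min with 17.1, 6.96 and 13.3 CPM (−1.38 ± 0.35, adjusted p = 0.00383), and also at 40, 50 and 60 min, with the lowest value of −1.63 ± 0.36 at 50 min (adjusted p = 0.000669).

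By 90 min RRN11 had 27.5, 16.6 and 27.9 CPM and was not called (−0.43 ± 0.34, adjusted p = 0.348). The 10 min value of −1.30 ± 0.35 (adjusted p = 0.0126) and the 75 min value of −0.87 ± 0.34 (0.0476) passed with the replicate block (0.00101 and 0.00713). With replicate 2 of every group left out, RRN11 was called lower at 10 min (−1.46), 15 min (−0.87) and 20 min (−0.85) as well. The call at 30 min was lost without replicate 1 of Abf1 0 min or replicate 2 or 3 of Abf1 30 min, that at 40 min without replicate 1 or 3 of Abf1 0 min or replicate 2 of Abf1 40 min, and that at 60 min without replicate 1 of Abf1 0 min or replicate 2 of Abf1 60 min. All 3 of these calls were also lost with only the groups compared in the fit (adjusted p = 0.0143 at 30 min, 0.0246 at 40 min and 0.0118 at 60 min), a fit that called RRN11 at 10 min (0.0014) and 20 min (0.00836), while DESeq2 called it at 10 min (0.00267). In WT it had 18.1, 14.7 and 15.4 CPM at 90 min, against 21.6, 17.7 and 22.2 CPM at 0 min, all below the 3 libraries of Abf1 0 min. That difference between the strains at 0 min was 0.65 ± 0.34 and not called (adjusted p = 0.423). Its promoter had no match to the Abf1 consensus and 3 PAC matches.

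RRN3 (YKL125W, chromosome XI, 208247 to 210130, plus strand), which binds Pol I and makes it able to initiate, was higher late. It had 121, 108 and 96.2 CPM at Abf1 90 min, against 69.5, 55.2 and 48.7 CPM at Abf1 0 min. The groups did not overlap, and the level was 1.88-fold higher (0.91 ± 0.17, adjusted p = 7.98e-05). At 20 min it was not called (0.24 ± 0.17, adjusted p = 0.452), and the 90 min group was 1.59-fold above the 20 min group (0.67 ± 0.17, adjusted p = 0.0061).

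At 75 min RRN3 had 108, 93.4 and 84.4 CPM (0.72 ± 0.17, adjusted p = 0.00125). The 75 min call was lost without replicate 1 of that time or replicate 2 or 3 of Abf1 0 min. That of 90 min held with each single library left out, but was lost with replicate 2 of every group left out (0.86, adjusted p = 0.0154). The difference from 20 min was lost without replicate 1 or 2 of Abf1 90 min or replicate 2 or 3 of Abf1 20 min, and with total counts as the only scaling (adjusted p = 0.0105). With only the groups compared in the fit, it (0.0412) and the 75 min call (0.0133) were lost. In WT, RRN3 had 56.8, 63.0 and 66.4 CPM at 90 min, against 62.4, 64.9 and 65.8 CPM at 0 min (−0.05 ± 0.17, adjusted p = 0.971). Among members RRN3 was the only call between 90 and 20 min, where edgeR called 1 higher and 0 lower (2 lower at an unadjusted p under 0.05, 0 lower by DESeq2) and 2.11% of all features were higher and 2.6% lower.

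In WT no member was called after 90 min of rapamycin. With edgeR 0 members were lower and 0 higher, while an unadjusted p below 0.05 was reached by 1 lower and 2 higher members and DESeq2 called 0, and 0% of all features were called in either direction. Over all features 280 were lower at an unadjusted p below 0.05 and 224 were higher, DESeq2 called 0, and a fit of the 2 WT groups alone called 7 lower and 26 higher. Member values lay between −0.34 and 0.45 with a median of 0.03.

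Before depletion no member was called between the strains. For Abf1 0 min against WT 0 min edgeR and DESeq2 called 0 members, while an unadjusted p below 0.05 was reached by 2 lower and 1 higher members, against 0.28% of all features lower and 0.245% higher. The median of the members was −0.14, against −0.01 over all features, and 28 of 37 members were below 0.

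Whether the change after 90 min of rapamycin differed between Abf1-FRB and WT was tested as an interaction. It was called lower for 4 members (10.8%, against 8.83% of all features) and higher for 1 (2.7% against 2.81%). The lower ones were RPC19 (−1.99 ± 0.39, adjusted p = 0.00022), RPO31 (−1.81 ± 0.15, adjusted p = 5.96e-11), RPC25 (−1.55 ± 0.41, adjusted p = 0.00613) and RPC40 (−1.42 ± 0.32, adjusted p = 0.00123), and the higher one was RRN3 (0.96 ± 0.24, adjusted p = 0.00342). RPC40, RPC19 and RPO31 kept the call with each of the 12 libraries left out.

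The RPC25 interaction was called without WT 90 min replicate 1, Abf1 0 min replicate 3 or Abf1 90 min replicate 1 and lost without any one of the other 9 libraries (−1.61 to −1.38, highest adjusted p = 0.0291). That of RRN3 was lost without WT 90 min replicate 1, Abf1 90 min replicate 1 or 2, or Abf1 0 min replicate 2 or 3, where it was 0.82 to 0.94. With replicate 2 of every group left out both calls were lost (adjusted p = 0.114 for RPC25 and 0.102 for RRN3).

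Genes beside the 37 that work with both enzymes were read from lists chosen by function. Of the 5 small subunits present in all 3 RNA polymerases and TBP, 2 of 6 genes were called lower at 20 min and 5 of 6 at 90 min, against 8.65% and 11.3% of all features, and the list medians were −0.63 and −0.97. SPT15, which encodes TBP, the factor all 3 polymerases need, had 120, 122 and 126 CPM at 20 min and 104, 125 and 111 CPM at 90 min, against 233, 224 and 224 CPM at 0 min. The groups did not overlap (−0.88 ± 0.07, adjusted p = 1.61e-11 at 20 min, and −1.0 ± 0.07, adjusted p = 8.22e-13 at 90 min), and WT had 236, 237 and 246 CPM at 90 min against 229, 213 and 233 CPM at 0 min.

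RPC10, the smallest of the common subunits, had 12.5, 11.1 and 18.7 CPM at 90 min, against 42.4, 35.5 and 46.6 CPM at 0 min (−1.57 ± 0.24, adjusted p = 3.11e-06). RPB8 was lower at 20 min (−0.70 ± 0.18, adjusted p = 0.00388) and at 90 min (−1.14 ± 0.18), while RPO26 (−0.94 ± 0.14) and RPB10 (−0.87 ± 0.14) were called at 90 min. RPB5 was the member of this list without a call, at 0.01 ± 0.11 at 90 min. The same 5 genes were called lower in the interaction.

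Of the 7 subunits particular to Pol II, 1 was lower at 20 min (8.65% of all features) and 2 at 90 min (11.3% of all features), with list medians of −0.24 and −0.00. RPB3, which together with Rpb11 takes in Pol II the place that Rpc40 and Rpc19 have in Pol I and Pol III, had 73.8, 69.4 and 72.0 CPM at 90 min, against 150, 141 and 146 CPM at 0 min (−1.02 ± 0.08, adjusted p = 5.31e-12). Its change at 20 min was −0.81 ± 0.08 (adjusted p = 8.66e-10). RPB7, the Pol II stalk subunit, was called lower at 90 min (−1.04 ± 0.14, adjusted p = 6.1e-07).

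Among 9 other factors of rDNA and Pol III transcription, 1 was lower at both times and 1 was higher at 90 min, which is near the share of all features (8.65% lower at 20 min, 11.3% lower and 6.26% higher at 90 min). LHP1, the La protein that binds the ends of new Pol III transcripts, had 24.4, 25.8 and 31.1 CPM at 20 min and 18.9, 24.2 and 21.3 CPM at 90 min, against 58.3, 56.5 and 48.3 CPM at 0 min (−1.01 ± 0.14 and −1.34 ± 0.14). NHP6B, a high-mobility-group protein that acts at Pol III genes, was higher at 90 min with 52.1, 73.6 and 58.7 CPM, against 38.8, 34.0 and 29.9 CPM at 0 min (0.85 ± 0.14, adjusted p = 2.11e-05).

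Of 9 kinase and phosphatase genes that act on Maf1 or Pol III, again 1 was lower at both times and 1 was higher at 90 min, against the same shares of all features. MCK1 was lower at 20 min (−0.81 ± 0.08) and at 90 min, with 75.2, 81.2 and 79.2 CPM against 210, 186 and 202 CPM at 0 min (−1.34 ± 0.09, adjusted p = 3.46e-14). KNS1 was higher at 90 min, with 688, 922 and 744 CPM against 512, 383 and 555 CPM at 0 min (0.70 ± 0.16, adjusted p = 0.000849). Both products are kinases that phosphorylate the Pol III subunit Rpc53.

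Several members share the region before their start codon with a gene on the other strand. RPC25 and LTV1, a gene of small ribosomal subunit production, start 300 bp apart, and both were lower. LTV1 had 20.7, 17.7 and 19.3 CPM at 20 min, against 31.9, 45.8 and 43.0 CPM at 0 min (−1.07 ± 0.22, adjusted p = 0.000343), and its change at 90 min was −0.74 ± 0.22 (adjusted p = 0.00784).

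The partners of the other 3 lower members were not called lower. DBF20, 471 bp from RPC40, had 97, 68.2 and 69.7 CPM at 20 min, against 99.1, 80.0 and 79.2 CPM at 0 min, and was not called at 20 min (−0.14 ± 0.26) or 90 min (−0.13 ± 0.26). YNL115C, 718 bp from RPC19, was at 0.04 ± 0.09 and 0.16 ± 0.09. RPT5, a proteasome gene 884 bp from RPO31, was at −0.04 ± 0.07 at 20 min but was called higher at 90 min, with 438, 497 and 498 CPM against 302, 336 and 307 CPM at 0 min (0.60 ± 0.07, adjusted p = 3.34e-08).

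Some partners were called where the member was not. PZF1 lies 235 bp from RPO26, which was called lower at 90 min, when PZF1 was not called. Their values were 0.51 ± 0.09 and −0.55 ± 0.14 at 20 min. The genes on either side of this stretch thus lay on opposite sides of 0 at 20 min, neither of them past 1.5-fold or called. QCR2, of the respiratory chain, 340 bp from RPC82, was lower at 90 min (−0.85 ± 0.10, adjusted p = 4.06e-08). UFD1, 357 bp from TFC4 (0.67 ± 0.09), and NCR1, 783 bp from TFC8 (0.62 ± 0.11), were higher at 90 min, while NTA1, the partner of RPA12 at 346 bp, was not called (0.06 ± 0.07 at 20 min and 0.20 ± 0.07 at 90 min).

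**Figure D4:**
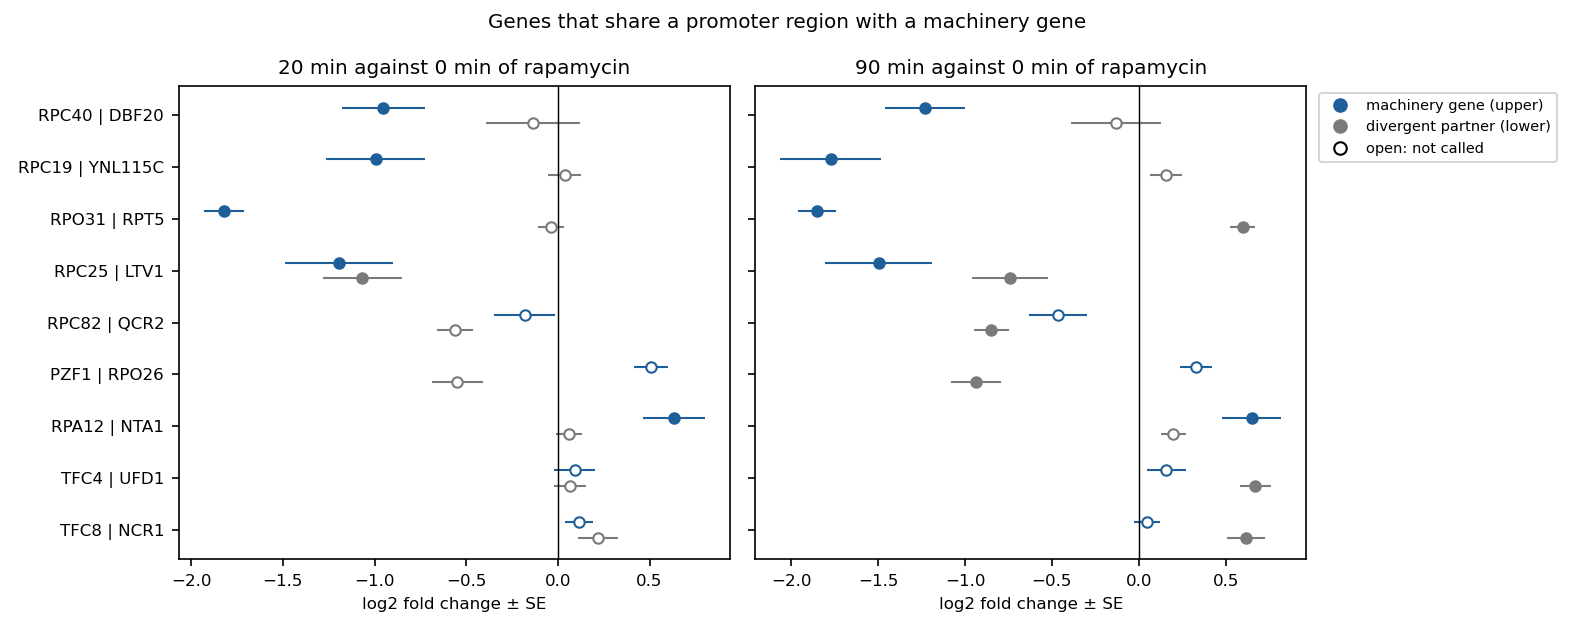
Log2 fold change ± SE at 20 min (left) and 90 min (right) of rapamycin against 0 min in the Abf1-FRB strain for 9 machinery genes (blue, upper of each pair) and the gene that starts on the other strand (grey, lower). Filled points are called and open points are not. Of the 4 members called lower, RPC25 has a partner that is lower too (LTV1).

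The products of Pol III itself were scarcely covered. The 275 nuclear tRNA genes took 0.00451% to 0.0140% of the counts of a library, with a median count of 0 per gene and library, and 50.9% of values at 0. Of them 19 passed the filter on low counts and were tested. At 90 min edgeR and DESeq2 called 0 of the 19 in either direction, with 2 lower and 0 higher at an unadjusted p of less than 0.05, and the median was 0.02 (log2). In every other comparison both tools also called 0, and at most 2 of the 19 reached an unadjusted p of less than 0.05. For the other tRNA genes no change could be tested at this depth. The summed share of all 275 nuclear tRNA genes was 0.00798% ± 0.00163 at Abf1 90 min, against 0.00891% ± 0.00132 at Abf1 0 min (SD, n = 3 each, exact permutation test, p = 0.5). At 5 min the share was 0.00671% ± 0.000347 and at 60 min 0.00630% ± 0.00156, each with p = 0.1, the smallest that the exact two-sided test of 3 against 3 can give. The same exact p of 0.1 held before depletion, where Abf1 0 min was below WT 0 min (0.0118% ± 0.00118). With tRNA genes and totals limited to features kept by the filter, the exact p was 0.3 at 5 min, 0.3 at 60 min and 0.2 between the strains. In WT the shares were 0.00990% ± 0.00203 at 90 min against 0.0118% ± 0.00118 at 0 min (exact p = 0.3), and no adjusted p over the 13 exact comparisons was under 0.433. Features of ribosomal RNA are not analysed here.

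Of 4 Pol III transcripts with a single gene, SNR6 had at most 3 counts and was not tested. SNR52, a guide RNA for ribosomal RNA modification, had 12.3, 8.41 and 8.93 CPM at Abf1 90 min, against 9.21, 7.6 and 5.25 CPM at Abf1 0 min. These groups overlapped, and it was called neither there (0.42 ± 0.29, adjusted p = 0.269) nor in the interaction (0.15 ± 0.41, adjusted p = 0.866). SCR1, the RNA of the signal recognition particle, had 1015, 1099 and 1217 CPM at Abf1 90 min, against 566, 449 and 480 CPM at Abf1 0 min, with no overlap (1.16 ± 0.33, adjusted p = 0.00688). In WT it had 449, 437 and 462 CPM at 90 min, against 408, 658 and 353 CPM at 0 min, and the interaction was not called (1.23 ± 0.47, adjusted p = 0.0622). RPR1, the RNA of RNase P, had 126, 96.5 and 114 CPM at 90 min, against 83.2, 72.2 and 50.9 CPM at 0 min. It was not called there (0.70 ± 0.23, adjusted p = 0.0169), but its interaction was (1.17 ± 0.33, adjusted p = 0.00927), and WT had 54.8, 62.7 and 54.1 CPM at 90 min against 74.0, 98.2 and 63.6 CPM at 0 min.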

How the data were processed

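4tU-seq libraries of Saccharomyces cerevisiae were prepared from biological triplicates, per the study's methods. The authors aligned reads of these directional libraries to sacCer3 with HISAT2 (2.0.5), kept each combination of molecular identifiers once and made the deposited counts per feature with featureCounts (Subread 1.6.5), with sequencing runs of a sample summed. The strand setting of the counting is not given in the sources used here. A further deposited table holds the authors' own fold changes and p-values (DESeq2 1.10.1) and was not used. Groups were taken from the sample labels.

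Counts were fitted with edgeR 4.0.16 in R 4.3.3 (TMM scaling, filterByExpr with a minimum count of 10, robust quasi-likelihood test, 1 coefficient per group over 39 libraries). All p-values are two-sided, and adjusted p-values (Benjamini-Hochberg) run over the 5722 of 6420 features kept. A change was called at an adjusted p under 0.01 and a fold over 1.5. DESeq2 1.42.0, other scalings, no filter, a fit of only the groups compared, a replicate block and leaving out libraries were tried as alternatives. Leaving out replicate 2 of every group was chosen after seeing the data. Scripts were tested on simulated data.

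Replicate numbers come from the labels. Deviations of same-numbered libraries correlated at 0.247 or more in every comparison within the Abf1-FRB strain other than 50 min (lowest 0.0849). There the numbers were taken as pairing the samples, but the pairing is uncertain. At 10, 30, 40, 60, 75 and 90 min against 0 min, at least 1 library correlated best with a library of another number. In comparisons within WT (lowest 0.0606) and between the strains (0.0744) the numbers were not taken as pairing. The values given come from the fit without a block unless the block is named, and the exact tests of tRNA shares are unpaired. The chi-square per degree of freedom between replicates was 2.04 to 45.2, so none were repeats of 1 library. Promoters and gene coordinates come from assembly R64, whose locus tags matched 6041 of 6420 features and 37 of 37 members.

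The 37 members and all lists were chosen with earlier results of these data known. Named with values were members called in 1 direction at both 20 and 30 min, at 90 min, in WT, between strains or by interaction, the 3 with the highest level per kb, list genes called at 20 or 90 min, and divergent partners where either gene was called then. Any others named were chosen after their values were seen.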

Additional observations from a re-analysis of the deposited data

Results flagged for a closer look

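For 5 members the change after 90 min of rapamycin differed between the Abf1-FRB strain and WT by the interaction test of edgeR. The difference, Abf1-FRB minus WT on the log2 scale, was −1.42 for RPC40, −1.99 for RPC19, −1.81 for RPO31, −1.55 for RPC25 and 0.96 for RRN3. Outliers within groups were not tested, since each group held 3 libraries.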

How the results depend on the processing

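Of the 47 changes of members called, no value turned its direction. Over the alternative scalings, filters, designs and DESeq2, 265 of 282 values kept the call and 17 lost it, and with libraries left out 278 of 359 kept it and 81 lost it. With the replicate block, 1 member was lower at 10 min and 3 at 15 min. Where the numbers did not pair the samples, the block added RPA135 (−0.87) and RPA43 (−0.62) at 50 min and RPC31 (−0.62) in the interaction. Beside those given with the genes, it changed no other call. With only the groups compared in the fit, 1 member was lower at 10 min and 2 at 15 min, while 3 were lower at 50 min and 4 at 60 min. In that fit 0 were higher at 20 and 75 min, 1 was higher at 90 min, and 0 were higher at 90 against 20 min. DESeq2 called 1 lower at 10 min. Without a block, it also called RPA135 lower at 40 min (−0.81, adjusted p = 0.00724). At 50 min it called RPA135 (−0.86, adjusted p = 0.00346) and RPA43 (−0.62, 0.00713) lower. With the scaling of DESeq2 in edgeR, RPA135 was called lower at 50 min as well (−0.86, adjusted p = 0.00918). With total counts only, 0 were higher at 20 min and 0 at 90 against 20 min, and with no filter 0 were higher at 20 min. The cause of these shifts was not tested. With libraries left out, 0 to 1 members were lower at 10 min and 1 to 2 at 15 min. The count was 1 to 4 at 20 min (also for both 20 and 30 min) and 3 to 5 at 30 min. It was 3 to 6 at 40 and 75 min, 5 to 7 at 50 min, 4 to 8 at 60 min, 3 to 5 at 90 min, and 3 to 4 in the interaction. Members called higher numbered 0 to 1 at 20 and 50 min, 0 to 2 at 75 and 90 min, and 0 to 1 at 90 against 20 min and in the interaction. With the filter on low counts applied to tRNA genes and to the total alike, the difference in the share of tRNA counts (in percent) was −0.000777 for 5 min, −0.000753 for 40 min, −0.00115 for 60 min and −0.00142 between the strains at 0 min. Fitted on the log2 scale, the rate of decrease was 0.0682 per min for RPC19 and 0.106 per min for RPO31. Among the members, RPC25 had the lowest count (20), and most tRNA genes and SNR6 had too few counts to be tested.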
